A study of Capra hircus with 198 samples.

Results

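Keratins are the proteins of the intermediate filaments of epithelial cells, and the genes described here are all features of the count table whose symbol is KRT followed by a number and at most 1 further letter. The rule found 34 keratin genes among 39734 features, 19 of type I and 15 of type II. Total RNA was sequenced from 33 tissues of 6 adult Murciano-Granadina goats, all female, with 1 library per goat and tissue. Goats 2, 3 and 6 carry the label Lactation and goats 54, 64 and 73 the label Dry, so that each tissue has 3 libraries of each state. The tissues set against each other are neck skin, esophagus and the 3 forestomachs (rumen, reticulum and omasum), which are lined by stratified squamous epithelium, the mammary gland, and 7 tissues with simple epithelium (abomasum, duodenum, colon, liver, kidney medulla, thyroid and lung). Values in CPM, counts per 1000000 counts of a library, are the deposited counts divided by the library total, with the SD over goats. They are not corrected for gene length, so that levels are compared for 1 gene across tissues and not between genes.

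A keratin filament is built from pairs of 1 type I and 1 type II protein, and most epithelia make a characteristic pair. KRT5 and KRT14 are the pair of basal cells in stratified epithelia, KRT1 and KRT10 replace them in the differentiating layers of the epidermis, KRT4 belongs to differentiating cells of moist mucosae, and KRT8 and KRT18 form the filaments of simple epithelia. Further sets of type I and type II genes are known from humans and mice for the inner root sheath and the shaft of the hair. By these known roles the 34 genes were sorted into 2 basal, 5 epidermal, 6 mucosal, 4 inner root sheath, 8 hair shaft, 5 simple epithelial and 4 other keratins. KRT13, KRT15, KRT16 and KRT17 are not analysed here.

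Total counts ran from 3.64 to 6.05 M in the 78 libraries of the 13 epithelial tissues, where a floor of 3 counts stands at 0.496 to 0.824 CPM. Among the 30 libraries of the stratified tissues, 4 stood apart by 8 keratinocyte genes other than keratins (among them TP63, DSG3, PKP1, DSC3, PERP, COL17A1 and SFN). Their summed level was 33.2 CPM in neck skin of goat 3 and 30.5 CPM in neck skin of goat 6, against 363 to 672 CPM in the other neck skin libraries. It was 8.90 CPM in the esophagus of goat 6, against 242 to 922 CPM in the other esophagus libraries, and 94.2 CPM in the rumen of goat 54, against 378 to 634 CPM in the other rumen libraries. SFN and PKP1 were at 0 in both low neck skin libraries and in the low esophagus library. A set of 5 skeletal muscle genes summed to 2605 CPM in neck skin of goat 3 and to 7384 CPM in the esophagus of goat 6, and the same set reached 1344 CPM in the esophagus of goat 2. The 6 fibroblast genes summed to 3118 CPM in neck skin of goat 6, against 289 to 853 CPM in the other neck skin libraries, and the 8 smooth muscle genes to 2896 CPM in the rumen of goat 54, against 595 to 1855 CPM in the other rumen libraries. In such bulk samples fewer cells of a type and less RNA per cell cannot be told apart. Results that rest on these libraries are given with all libraries and without these 4. That second setting was added once the data had been seen.

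The keratins as a set lay low in the same libraries. All 34 summed to 28.9 CPM in neck skin of goat 3, 13.8 CPM in neck skin of goat 6, 12.46 CPM in the esophagus of goat 6 and 127 CPM in the rumen of goat 54. The other 26 stratified libraries lay between 817 and 7564 CPM, with a median of 1693 CPM, and did not overlap with the 4. Of the 34 keratins, 28 were at 0 in neck skin of goat 6, 29 in the esophagus of goat 6, 18 in neck skin of goat 3 and 15 in the rumen of goat 54.

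**Figure D1:**
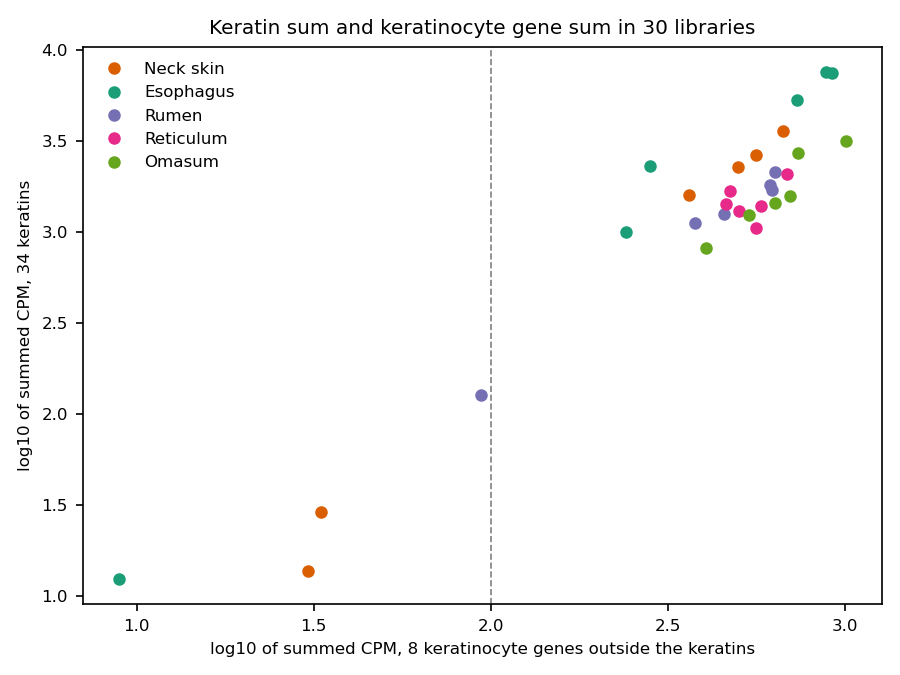
Summed CPM of the 34 keratins (vertical, log10 scale) against the summed CPM of 8 keratinocyte genes that are not keratins (horizontal, log10 scale) in the 30 libraries of neck skin, esophagus, rumen, reticulum and omasum, with a dashed line at 100 CPM. The 4 libraries left of the line hold keratin sums of 12.46 to 127 CPM, and the other 26 hold 817 to 7564 CPM.

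Keratin levels were concentrated in the stratified tissues. With all libraries, 27 of the 34 genes had their highest mean in one of them. These were 17 in neck skin, 4 in esophagus, 4 in omasum and 2 in reticulum. The split depends on the low libraries for KRT5, whose mean was 225 CPM in omasum and 167 CPM in neck skin. Without the low libraries KRT5 averaged 251 CPM in neck skin. Colon held the highest mean of 3 (KRT8, KRT19 and KRT20), and the mammary gland (KRT7), abomasum (KRT18), bridge of the brainstem (KRT12) and frontal neocortex (KRT222) that of 1 each. Means of 1 CPM or more were reached by 27 keratins in neck skin, 14 in esophagus, 15 in rumen, 15 in reticulum and 16 in omasum. In the authors' deposited table of tau, a score that is 1 for a gene of a single tissue, 26 of the 34 keratins (76.5%) stood at 0.8 or more, against 9133 of 33323 features (27.4%), with medians of 0.923 and 0.498. KRT1 stood at 1 in the authors' deposited table, and KRT10, KRT38 and KRT39 at 0.675, 0.601 and 0.495. These last were the keratins whose mean reached 1 CPM in all 33 tissues.

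**Figure D2:**
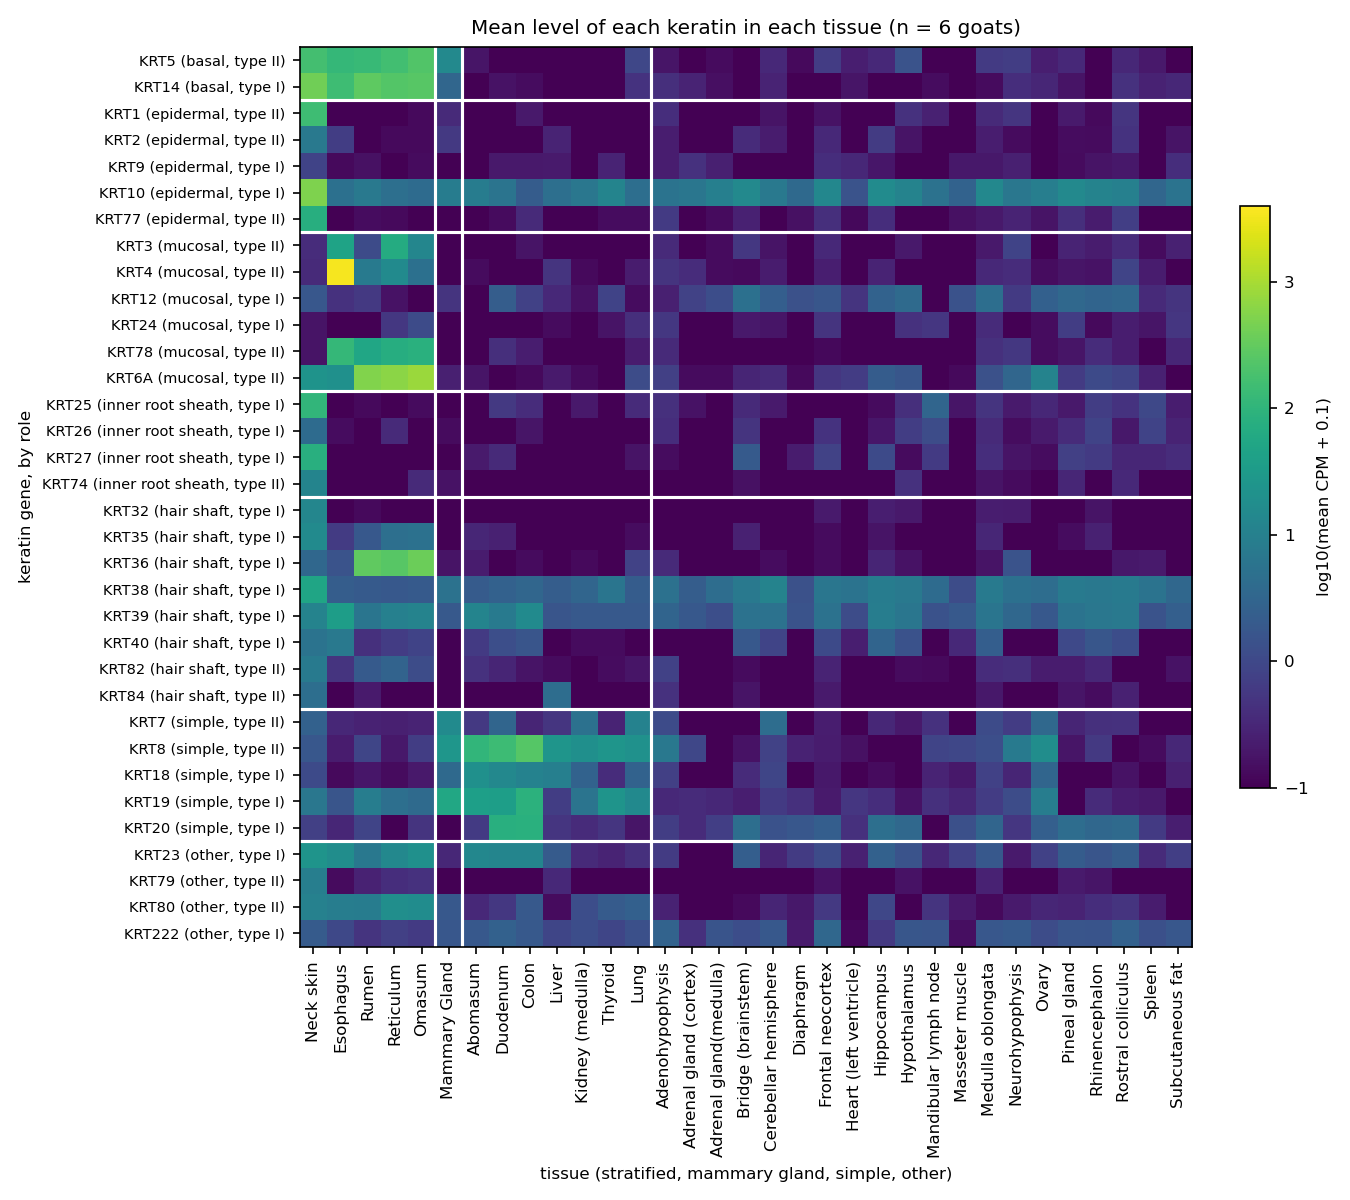
Mean level of the 34 keratins (rows, grouped by known role) in the 33 tissues (columns, stratified tissues first, then mammary gland, simple epithelia and other tissues), as log10(mean CPM + 0.1) over 6 libraries. Epidermal and inner root sheath genes fill the neck skin column, KRT4 the esophagus column, and KRT6A and KRT36 the 3 forestomach columns. KRT8, KRT18 and KRT19 fill the columns of abomasum, duodenum and colon, and KRT20 those of duodenum and colon.

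The basal pair was present in all 5 stratified tissues. KRT5, the type II keratin of basal cells, had 379, 0 and 0 CPM in neck skin of the lactating goats 2, 3 and 6 and 175, 225 and 224 CPM in neck skin of the dry goats 54, 64 and 73. The same goats had 53.3, 42.4 and 0 CPM and 204, 155 and 244 CPM in the esophagus. Rumen had 250, 143 and 133 CPM in lactating goats and 11.2, 122 and 107 CPM in dry goats. Outside the low libraries, values of neck skin, esophagus and rumen overlapped, and so did those of reticulum (88.6 to 236 CPM) and omasum (123 to 315 CPM).

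KRT14, the type I partner, had 857, 0 and 0.213 CPM in neck skin of lactating goats and 409, 568 and 525 CPM in that of dry goats. Esophagus had 38.0, 53.6 and 0 CPM in lactating and 308, 192 and 281 CPM in dry goats. Rumen had 317, 453 and 318 CPM in lactating goats and 18.3, 342 and 311 CPM in dry goats. The neck skin libraries of goats 2, 54, 64 and 73 all lay above the 5 esophagus libraries with keratinocyte genes. KRT14 ran from 150 to 510 CPM in reticulum and from 64.5 to 696 CPM in omasum, with goat 3 at the top of both.

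**Figure D3:**
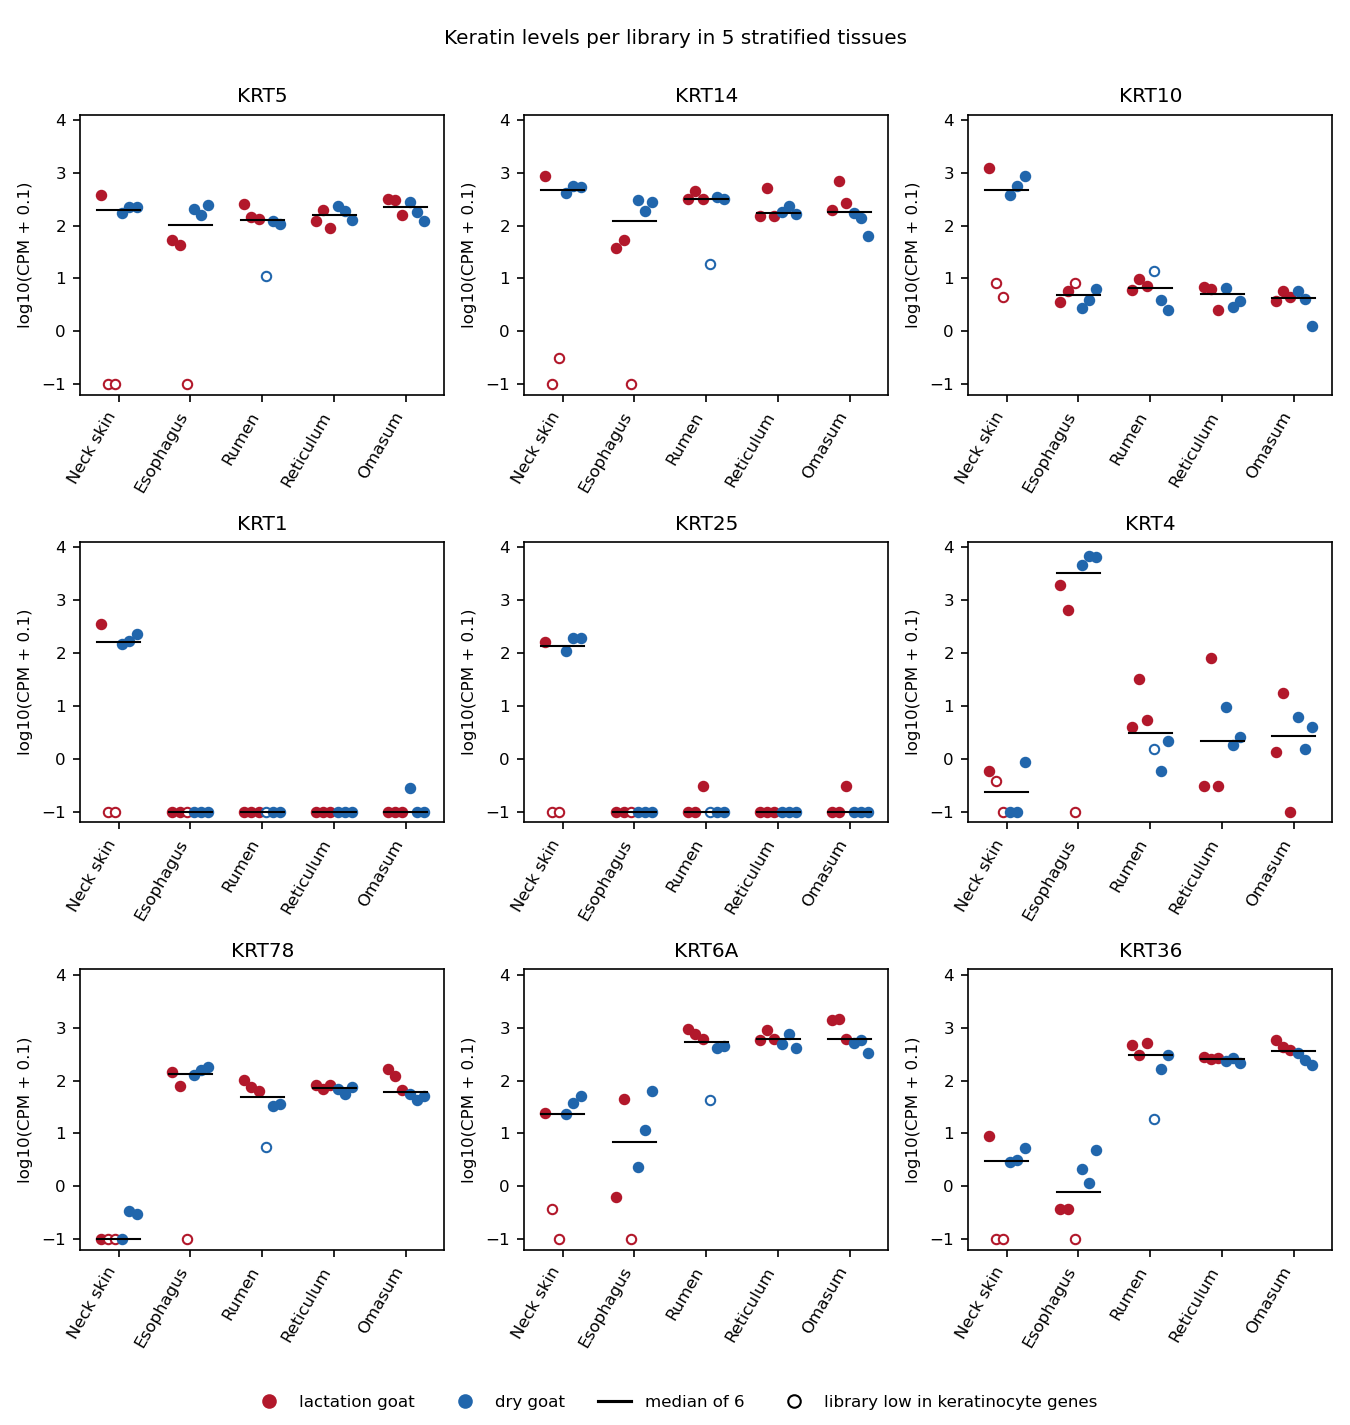
Level of 9 keratins in each library of neck skin, esophagus, rumen, reticulum and omasum, as log10(CPM + 0.1), 1 panel per gene. Red points are lactating goats and blue points dry goats, open points are the 4 libraries low in keratinocyte genes, and the line is the median of 6. KRT5 overlaps across tissues, and the filled KRT14 points of neck skin lie above those of esophagus. KRT10, KRT1 and KRT25 are high in neck skin, KRT4 in esophagus, and KRT6A and KRT36 in the forestomachs, while KRT78 is high in esophagus and forestomachs.

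KRT5 and KRT14 were high in the same tissues. Over the means of 33 tissues the log2 levels had a Pearson correlation of 0.983 and a Spearman correlation of 0.636, a description in which most tissues sit near 0 and all share the same goats. The ratio of KRT5 to KRT14 counts, which leaves aside how much epithelium a library holds, was compared between the stratified tissues. Its geometric mean was 0.423 in neck skin (0.396 to 0.443, n = 4), 0.877 in esophagus (0.663 to 1.40, n = 5), 0.448 in rumen (0.315 to 0.791, n = 6), 0.727 in reticulum (0.390 to 1.32) and 1.08 in omasum (0.430 to 1.90). By a two-sided exact permutation test, adjusted over 16 ratio comparisons, neck skin differed from esophagus (difference −1.05 on the log2 scale, adjusted p = 0.0317) and from omasum (adjusted p = 0.0339), esophagus from rumen (adjusted p = 0.0231) and rumen from omasum (adjusted p = 0.0346). The other 6 pairs did not pass, with adjusted p from 0.0693 to 0.781 in the same exact permutation test. These tests treat the libraries of 1 goat as independent. The ratios were also compared within goats by an exact permutation test, with 4 to 6 goats a pair. That test cannot go below an unadjusted p of 0.125 with 4 goats, 0.0625 with 5 and 0.03125 with 6. With so few goats no pair could pass after adjustment over the 16 comparisons, whatever the data. That 0 of the 16 passed (adjusted p from 0.1 to 0.562, exact permutation test) thus could not decide whether the ratios differ within goats. The ratio was lower in neck skin than in esophagus and omasum in 4 of 4 goats, higher in esophagus than in rumen in 5 of 5 and lower in rumen than in omasum in 6 of 6. Libraries with too few counts of both genes together, 2 of neck skin and 1 of esophagus, gave no ratio.

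Epidermal keratins were a neck skin signal. KRT10, the type I keratin of the differentiating epidermis, had 1228, 8.24 and 4.25 CPM in neck skin of lactating goats and 377, 558 and 881 CPM in neck skin of dry goats. Every other stratified tissue was low, with 2.62 to 7.90 CPM in esophagus, 2.44 to 13.8 CPM in rumen, 2.44 to 6.84 CPM in reticulum and 1.15 to 5.61 CPM in omasum. The low neck skin libraries of goats 3 and 6 fell within the range of esophagus and forestomachs, and the other 4 lay far above it.

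KRT1, the type II partner of KRT10, had 346, 0 and 0 CPM in neck skin of lactating goats and 149, 170 and 228 CPM in that of dry goats. It was at 0 in every library of esophagus, rumen and reticulum, and neck skin was its single tissue with a mean of 1 CPM or more. Against 3 counts over the 6 esophagus libraries KRT1 was at least 1362-fold higher in neck skin. KRT77, a relative of KRT1 known from suprabasal epidermis of mice and sweat ducts of humans, had 145, 0 and 0 CPM in lactating and 106, 91.3 and 110 CPM in dry neck skin and was at least 691-fold above esophagus. KRT77 overlaps the lncRNA LOC102175478 in the RefSeq annotation, so its counts are uncertain. KRT2, a keratin of the upper epidermis, had 19.99 CPM in goat 2 and 18.7 CPM in goat 73, against 1.36 and 2.14 CPM in goats 54 and 64 and 0 in goats 3 and 6. KRT9, known from palm and sole skin in humans, averaged 0.734 CPM in neck skin, near the 3-count floor.

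Neck skin also held the hair follicle keratins. The inner root sheath genes KRT25 (159, 0 and 0 CPM in lactating and 109, 190 and 193 CPM in dry goats) and KRT27 (112, 0 and 0 CPM in lactating and 77.5, 143 and 156 CPM in dry goats) were at 0 in every esophagus library and at most 0.204 CPM in a forestomach library. KRT74, a type II keratin of the same sheath, had 14.6, 0.275 and 0 CPM in lactating and 9.04, 19.98 and 27.6 CPM in dry neck skin, and KRT26 had 3.90, 0 and 0 CPM in lactating and 4.07, 6.42 and 9.20 CPM in dry neck skin. All 4 were near 0 in the skin of goats 3 and 6 and present in that of the other 4 goats. Neck skin stood at least 1003-fold above esophagus for KRT25, 756-fold for KRT27 and 112-fold for KRT74, and at least 2535-fold above the forestomachs for KRT27. The 10 hair follicle genes outside the keratins summed to 13.7 and 10.2 CPM in neck skin of goats 3 and 6, and to 292 to 527 CPM in that of the other goats.

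Of the 8 hair shaft keratins, 5 had their highest mean in neck skin. KRT38 had 106, 3.67 and 5.72 CPM in neck skin of lactating and 39.2, 90.4 and 57.0 CPM in that of dry goats, against 0.737 to 4.23 CPM in esophagus. KRT35 had 45.8, 0 and 0 CPM in lactating and 9.72, 24.3 and 16.1 CPM in dry neck skin, and also averaged 5.004 CPM in omasum and 4.67 CPM in reticulum. KRT32 reached 11.3 to 24.6 CPM in the 4 neck skin libraries with keratinocyte genes, and KRT82, a keratin of the hair cuticle, 8.29 to 15.7 CPM. KRT84 had 7.31, 0 and 0 CPM in lactating and 7.68, 4.995 and 6.46 CPM in dry neck skin, and its second tissue was the liver with 2.11 to 6.16 CPM in all 6 goats. In the other 31 tissues KRT84 had a mean of at most 0.344 CPM.

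The remaining hair shaft genes peaked outside the skin. KRT36, a type I keratin of the hair group, had 474, 302 and 512 CPM in rumen of lactating and 18.6, 166 and 300 CPM in rumen of dry goats. Omasum had 583, 436 and 376 CPM in lactating and 337, 241 and 197 CPM in dry goats, and reticulum 217 to 283 CPM. Neck skin reached at most 8.83 CPM and esophagus at most 4.73 CPM, so that each forestomach library, the low rumen library of goat 54 included, lay above every library of skin and esophagus. KRT39 peaked in esophagus, with 98.9, 66.5 and 1.44 CPM in lactating and 14.6, 13.1 and 25.0 CPM in dry goats, against 0.549 to 25.8 CPM in neck skin. KRT40 had 14.3, 12.01 and 0 CPM in esophagus of lactating and 2.06, 2.75 and 11.0 CPM in that of dry goats, a range that overlapped with neck skin (0 to 13.6 CPM).

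Among the mucosal keratins KRT4 was an esophagus signal. KRT4, the type II keratin of differentiating mucosal cells, had 1912, 653 and 0 CPM in esophagus of lactating goats and 4602, 6956 and 6409 CPM in that of dry goats. The highest single values elsewhere were 80.4 CPM in the reticulum of goat 3, 32.0 CPM in rumen and 17.1 CPM in omasum, and neck skin had 7 counts of KRT4 over 6 libraries. Without the esophagus of goat 6, KRT4 averaged 4107 ± 2757 CPM in esophagus (SD, n = 5).

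KRT78, a type II keratin of stratified epithelia, was shared by esophagus and forestomachs. Neck skin held 2 counts of KRT78 over 6 libraries. Esophagus had 145, 77.9 and 0 CPM in lactating and 124, 161 and 183 CPM in dry goats, rumen 101, 74.5 and 62.8 CPM in lactating and 5.47, 33.2 and 35.4 CPM in dry goats. Reticulum lay between 55.3 and 82.8 CPM and omasum between 43.0 and 162 CPM. Against the 2 counts of neck skin, the ratio of pooled CPM in esophagus to neck skin was 1561, with an exact 95% counting interval from 432 to 12899, and the ratio of forestomachs to neck skin was 895 (248 to 7394).

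KRT6A, known in humans from hair follicle, tongue and wounded epidermis, had 928, 752 and 610 CPM in rumen of lactating and 42.7, 420 and 453 CPM in that of dry goats. Omasum had 1366, 1469 and 623 CPM in lactating and 522, 580 and 333 CPM in dry goats, and reticulum 412 to 900 CPM with a median of 605 CPM. Neck skin had at most 49.7 CPM and esophagus at most 63.1 CPM, so that the low rumen library of goat 54 was the single forestomach library to overlap with them. The unnamed coding gene LOC108635997 next to KRT6A had 316, 165 and 163 CPM in rumen of lactating and 0, 37.6 and 59.9 CPM in that of dry goats, and at most 2.61 CPM in esophagus. Whether reads are shared between this neighbour and KRT6A was not tested, and the values of both are uncertain.

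KRT3, known from the human cornea, differed widely between animals. Reticulum had 129, 25.4 and 33.2 CPM in lactating and 82.4, 132 and 6.81 CPM in dry goats, and omasum 27.3, 7.27 and 17.97 CPM in lactating and 10.7, 12.1 and 0.576 CPM in dry goats. Rumen had at most 3.54 CPM. Esophagus had 5.65, 0 and 0 CPM in lactating and 22.4, 21.2 and 230 CPM in dry goats, with goat 73 far above the rest. KRT12, the corneal partner of KRT3, had its highest mean in the bridge of the brainstem (4.86 CPM) and did not follow KRT3 across the 33 tissues (Pearson correlation of log2 means −0.291, Spearman 0.102). KRT24 had its highest mean in omasum (1.02 CPM) and was under 1 CPM in the other 32 tissues.

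Of the other keratins, KRT23 had medians of 26.8 CPM in neck skin, 18.1 CPM in esophagus and 21.5 CPM in omasum, and was also present in abomasum (median 12.7 CPM) and colon (13.5 CPM). KRT79 averaged 9.14 CPM in neck skin, at 11.5 to 16.3 CPM in the 4 libraries with keratinocyte genes, and at most 0.359 CPM in any other tissue. KRT80 had 27.3, 36.3 and 19.4 CPM in omasum of lactating goats and 5.44, 6.95 and 7.87 CPM in that of dry goats. The states did not overlap, and the difference of 1.85 (SE 0.33) did not pass edgeR's test, with an adjusted p of 0.0567, where 0.173% of features were called. KRT80 was called higher in lactation in 5 of 12 alternatives, namely DESeq2, library totals alone, the authors' offsets, no filter and without goat 6 (adjusted p from 3.35e-05 to 0.240 over all of them).

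The first tests set neck skin against esophagus over 6 libraries each, with edgeR's quasi-likelihood test adjusted by Benjamini-Hochberg over all features. With all libraries 9 keratins passed the filter on low counts and 2 were called, both higher in neck skin, where 2.5% of 16292 features were called (0.571% higher and 1.93% lower). KRT10 was higher by 6.12 on the log2 scale (SE 1.15, adjusted p = 0.0153) and KRT38 by 3.94 (SE 0.76, adjusted p = 0.0178), and 3 keratins had an unadjusted p under 0.05. KRT10 passed the filter in both tissues. KRT38 passed it only through neck skin, in which it is high, so that its call is a description. Both calls were lost without goat 2, 54, 64 or 73 (adjusted p from 0.0799 to 0.103), and over all alternatives adjusted p ran from 9.20e-10 to 0.161 for KRT10 and from 1.61e-06 to 0.103 for KRT38. Under the block by goat, KRT38 was the single call (log2 difference 3.47, adjusted p = 0.0352), where 0.896% of features were called, and KRT10 stood at 5.16 (adjusted p = 0.161).

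Without the 3 low libraries of these tissues, 25 keratins passed the filter and 16 were called, 13 higher and 3 lower in neck skin, where 7.98% of 17423 features were called (2.85% higher and 5.13% lower). Of these 16, 15 passed the filter only through the tissue in which they are high, so that they had to differ, and the counts are a description. KRT10 alone passed it in both tissues. All 3 tested epidermal genes and all 4 tested inner root sheath genes were higher, as were 5 of 8 hair shaft genes. KRT10 was higher by 6.89 (SE 0.43, adjusted p = 2.02e-06). KRT38 was higher by 4.31 (SE 0.38, adjusted p = 2.97e-05), with 1277 counts in neck skin and 56 in esophagus. KRT82 had 202 counts in neck skin and 11 in esophagus. The 3 lower genes were mucosal, KRT4 with 6 counts in neck skin and 100957 in esophagus, KRT78 with 2 and 3221 counts, and KRT3 with 4 and 1457 counts. The basal genes did not pass, at 0.15 (SE 0.53) for KRT5 and 1.06 (SE 0.59) for KRT14.

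Against the mean of the 3 forestomachs, neck skin differed with all 24 libraries in the fit. The 18 forestomach libraries come from the same 6 goats, so that they are not independent animals. Of 16 keratins tested, 4 were higher and 5 lower in neck skin, where 22.5% of 20269 features were called (10.6% higher and 11.9% lower). KRT10 (log2 difference 6.35, SE 0.55, adjusted p = 4.63e-09), KRT38 (4.44, SE 0.40, adjusted p = 9.48e-09), KRT40 (3.13, SE 0.77, adjusted p = 0.00422) and KRT35 (1.81, SE 0.62, adjusted p = 0.0361) were higher. KRT36 (−6.81, SE 0.70, adjusted p = 6.75e-08) and KRT6A (−5.09, SE 0.78, adjusted p = 2.71e-05) were lower. All 5 lower genes passed the filter only through the forestomachs, and KRT38 only through neck skin, so that these calls are a description. Of the lower genes, 3 were nearly absent from the neck skin libraries. KRT3 had 7 counts in neck skin and 2483 in the forestomachs, KRT4 had 7 and 777 counts, and KRT78 had 2 and 6194 counts. The KRT35 call was lost under DESeq2, the block by goat (1.72, adjusted p = 0.0630) and without goat 2, 54, 64 or 73 (adjusted p from 0.0646 to 0.226), while 7 of the other 8 passed in every alternative tried. KRT40 passed where it was tested, and without goat 54 it did not pass the filter on low counts. With all libraries KRT40 passed the filter through neither side alone, with 147 counts in neck skin and 49 in the forestomachs. Its call is a description as well. KRT5 (−0.34, SE 0.68) and KRT14 (0.29, SE 0.72) did not pass. Without the low libraries 15 were higher and 5 lower of 25 tested, where 19.6% of 21276 features were called (8.8% higher and 10.8% lower), and 13 of these 20 keratins passed the filter through 1 side only.

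Esophagus against the forestomachs gave 4 keratins higher and 3 lower of 16 tested, where 10.2% of 19607 features were called (5.26% higher and 4.93% lower). KRT4 was higher by 8.97 (SE 1.003, adjusted p = 6.66e-07), KRT40 by 3.83 (SE 0.73, adjusted p = 0.000698) and KRT39 by 2.09 (SE 0.40, adjusted p = 0.000727). KRT36 (−7.43, SE 0.71, adjusted p = 5.19e-08) and KRT6A (−4.85, SE 0.84, adjusted p = 0.000251) were lower, and these 5 calls held in every alternative tried. All 3 lower genes passed the filter only through the forestomachs, in which they are high, so that these calls are a description. KRT40 passed it through neither side alone, with 180 counts in esophagus and 49 in the forestomachs. Its call is a description as well. KRT35 was lower in esophagus (−2.52, SE 0.76, adjusted p = 0.0309), a call lost without goat 2, 3, 6 or 54 (adjusted p from 0.0589 to 0.145) and in dry goats alone (−1.38, adjusted p = 0.498). KRT3 was higher by 2.52 (SE 0.79, adjusted p = 0.0403) with all libraries, and without goat 73 it stood at −0.069 (adjusted p = 0.976). Under the block by goat it stood at 1.22 (adjusted p = 0.566), and the call also ended without goat 54 or 64, under DESeq2 and with library totals alone. KRT78 was 0.92 higher (SE 0.49, adjusted p = 0.278), and 1.12 higher (SE 0.24, adjusted p = 0.00221) without the low libraries, where 12.7% of features were called.

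**Figure D4:**
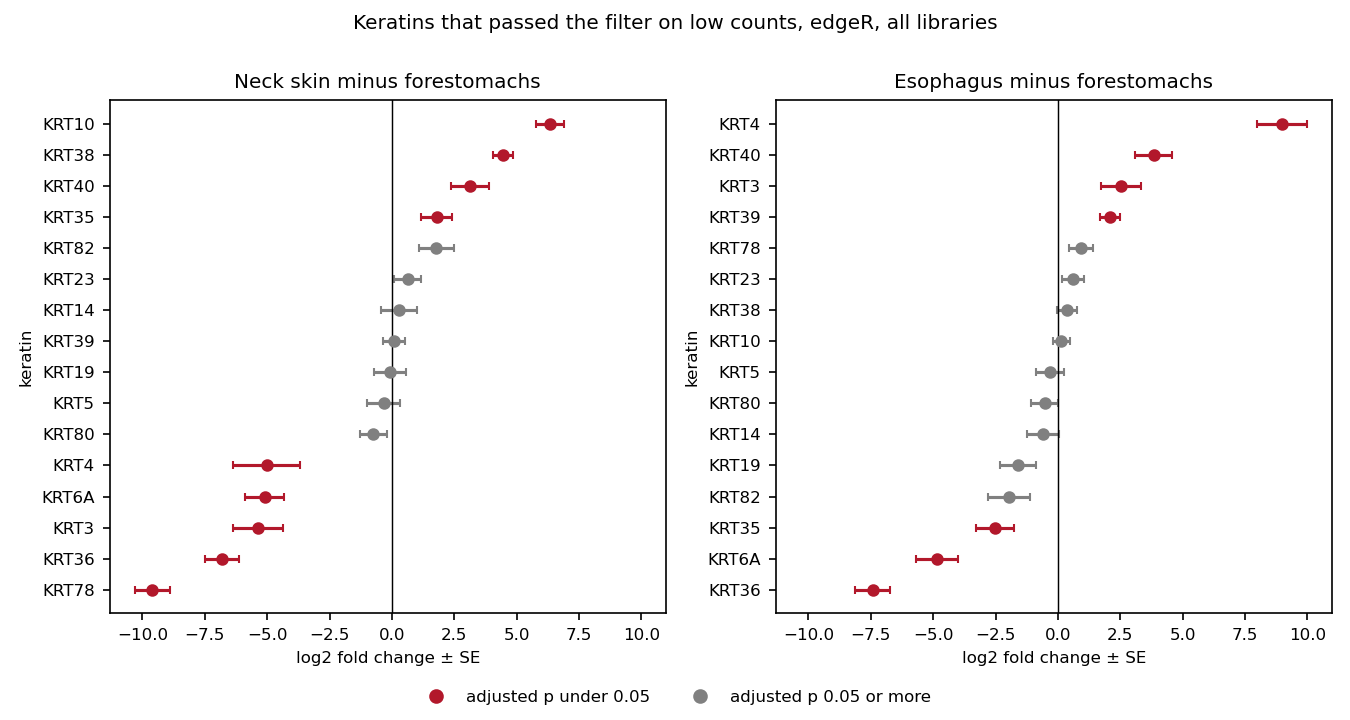
Log2 differences with their standard errors for the 16 keratins tested in both comparisons, neck skin minus the mean of the forestomachs and esophagus minus the mean of the forestomachs, with red points at an adjusted p under 0.05. KRT36 and KRT6A are lower than in the forestomachs in both panels, KRT4 is lower in neck skin, which holds 7 counts of it, and higher in esophagus (8.97), and KRT5 and KRT14 lie near 0 in both; the comparisons share the forestomach libraries.

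Among the forestomachs edgeR called KRT3 alone of the keratins. Of 14 keratins tested over 18 libraries, it was called between rumen and reticulum, lower in rumen (−5.99, SE 0.90, adjusted p = 0.00201), where 0.176% of features were called (0.139% lower). KRT3 passed the filter on low counts through reticulum, in which it is high, while rumen had at most 3.54 CPM. Its calls against rumen are therefore a description. In dry goats alone the call between rumen and reticulum was lost (−6.38, adjusted p = 0.185). For rumen against omasum edgeR called 0 keratins, where 0.192% of features were called, with 4 at an unadjusted p under 0.05 and 2 called by DESeq2 (0.865% of features called). For reticulum against omasum it also called 0, where 0.107% of features were called, with 1 at an unadjusted p under 0.05 and 0 called by DESeq2. With the goat as a block KRT3 was called in both, lower in rumen than in omasum (−3.80, adjusted p = 0.000878, 0.315% of features called) and higher in reticulum than in omasum (2.27, adjusted p = 0.0156, 0.203% of features called). Without the block the values were −3.54 (SE 0.87, adjusted p = 0.113) and 2.45 (SE 0.71, adjusted p = 0.319). In each of the 6 goats reticulum had more KRT3 than omasum, and omasum more than rumen.

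Keratins of simple epithelia had their own order of tissues. KRT8, the type II keratin of simple epithelia, ran from 140 to 370 CPM in colon (median 214 CPM) and from 98.3 to 180 CPM in duodenum. In abomasum it had 0.454, 122 and 89.7 CPM in lactating and 179, 146 and 97.4 CPM in dry goats. The abomasum of goat 2 stood apart, with 8 other genes of simple epithelia summing to 8.28 CPM, against 69.6 to 104 CPM in the other abomasum libraries. Liver (15.8 to 31.3 CPM), thyroid (11.5 to 39.0 CPM) and lung (13.1 to 28.2 CPM) overlapped with each other and lay below colon and duodenum.

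KRT18, the type I partner, had its highest mean in abomasum (20.1 ± 11.8 CPM, SD, n = 6), with 5.83 to 25.9 CPM in duodenum, 2.80 to 20.1 CPM in colon and 7.74 to 11.6 CPM in liver. Over the means of 33 tissues KRT8 and KRT18 had a Pearson correlation of 0.906 on the log2 scale. The geometric mean of the KRT8 to KRT18 ratio was 23.6 in colon (14.6 to 42.6, n = 6), 11.3 in duodenum (6.63 to 18.3), 5.23 in abomasum (3.28 to 7.48, n = 5) and 2.47 in liver (1.44 to 3.56). All 6 pairs passed the two-sided exact permutation test with adjusted p from 0.0173 to 0.0247. Compared within goats, 0 of the 6 passed (adjusted p = 0.1 for each, exact permutation test of 5 or 6 goats). With so few goats no pair could pass after adjustment over all ratio comparisons, so that the comparison within goats could not decide. The ratio was higher in colon than in duodenum in 5 of 6 goats, and the other 5 pairs had the same order in every goat. Values of colon and abomasum and of duodenum and liver did not overlap.

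KRT19, a type I keratin of ducts and simple epithelia, had 46.7 to 175 CPM in colon, 24.5 to 55.4 CPM in duodenum, 11.7 to 33.4 CPM in thyroid and 9.73 to 20.8 CPM in lung, and at most 1.15 CPM in liver. KRT20, known from intestinal epithelium, had 74.9, 33.98 and 53.5 CPM in colon of lactating and 52.1, 141 and 136 CPM in that of dry goats. Duodenum had 1.01, 45.4 and 79.8 CPM in lactating and 136, 102 and 113 CPM in dry goats, with goat 2 alone near the floor. The simple epithelium genes outside the keratins summed to 104 CPM in that duodenum library, against 189 to 245 CPM in the others. Abomasum, kidney, liver, lung and thyroid had at most 2.49 CPM of KRT20 in any library.

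**Figure D5:**
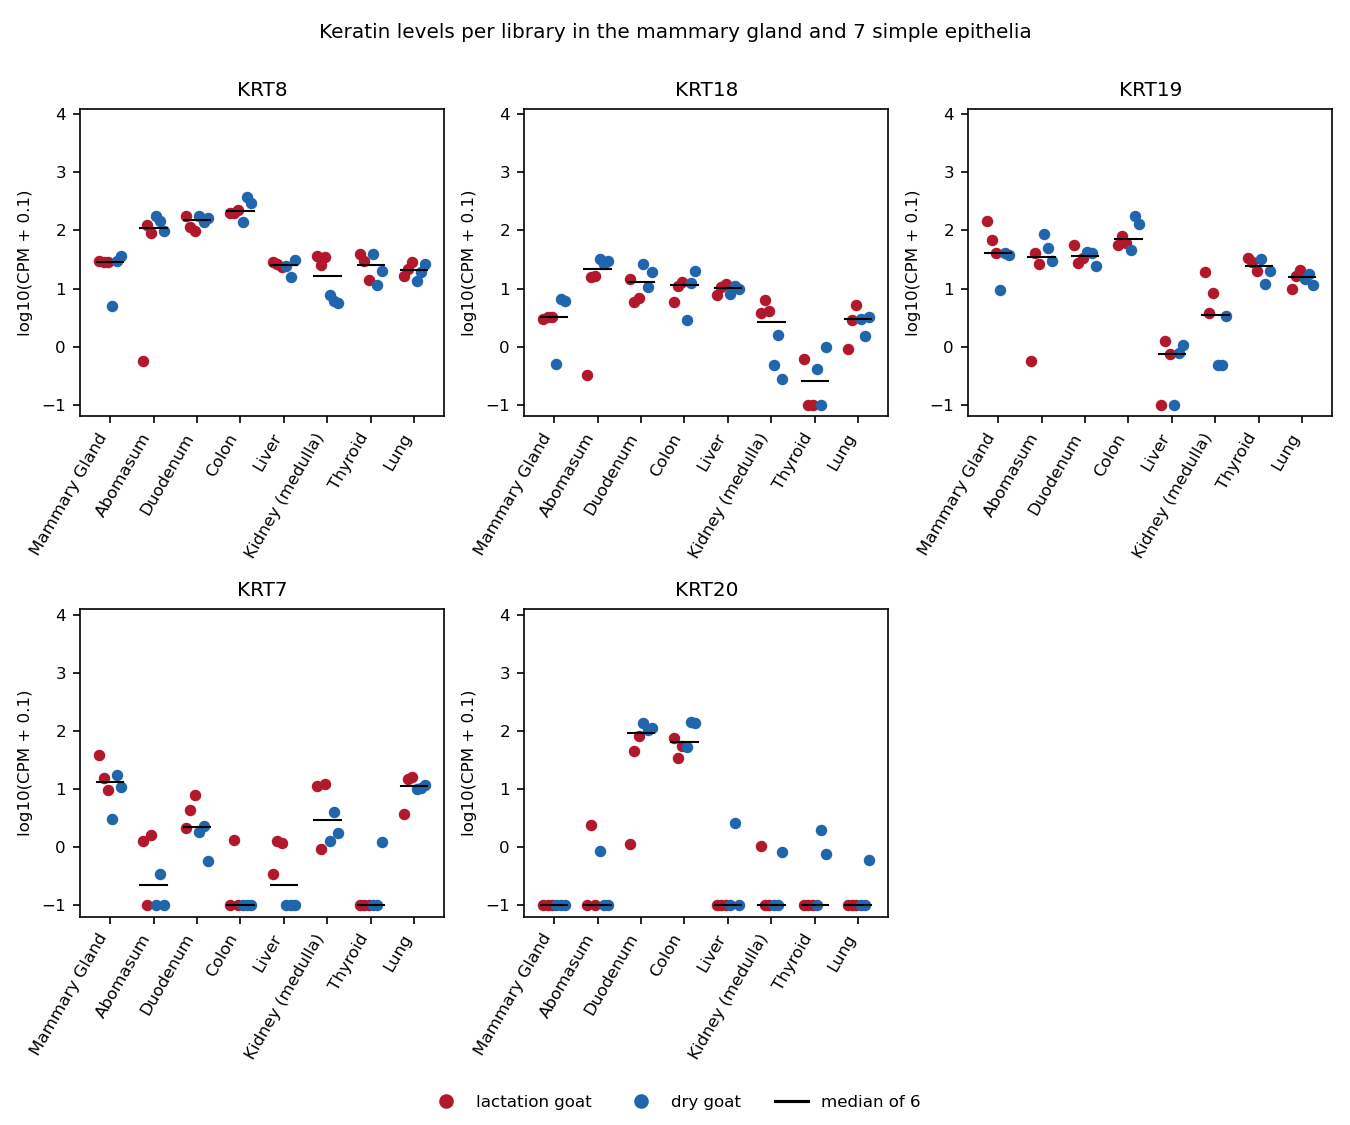
Level of KRT8, KRT18, KRT19, KRT7 and KRT20 in each library of the mammary gland and 7 tissues with simple epithelium, as log10(CPM + 0.1). Red points are lactating and blue points dry goats, and the line is the median of 6. KRT20 is high in duodenum and colon and at 0 in all 6 mammary libraries, KRT7 is highest in mammary gland and lung, and the abomasum of goat 2 lies near the floor for KRT8, KRT18 and KRT19.

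The stratified tissues were set against the 7 simple epithelia over 72 libraries. Of 22 keratins tested, 15 were higher and 5 lower in stratified tissues, where 41.0% of features were called (21.8% higher and 19.2% lower). Of these 20, 10 higher and 4 lower genes passed the filter only through the side in which they are high, so that the counts are a description. KRT14 had 38047 counts in the stratified tissues and 12 in the simple epithelia, KRT5 had 23415 and 24, KRT6A had 60253 and 34, and KRT36 had 27589 and 23. Among the genes that passed on both sides, KRT80 was higher by 4.33 (SE 0.36, adjusted p = 2.69e-16), KRT23 by 3.22 (SE 0.33, adjusted p = 6.25e-13), KRT39 by 1.87 (SE 0.30, adjusted p = 2.98e-07) and KRT10 by 1.40 (SE 0.24, adjusted p = 2.29e-06). Pooled KRT10 was high in neck skin alone, at 519 CPM. It was 4.89 CPM in esophagus and 5.13 CPM in the forestomachs, below the 6.20 CPM of the simple epithelia. Lower were all 5 simple epithelial keratins, KRT8 (−6.64, SE 0.32, adjusted p = 9.87e-28), KRT18 (−4.90, SE 0.44, adjusted p = 4.56e-15), KRT20 (−2.46, SE 0.79, adjusted p = 0.00890), KRT19 (−1.49, SE 0.32, adjusted p = 0.000112) and KRT7 (−1.42, SE 0.49, adjusted p = 0.0148). The KRT7 call was lost without lung (−0.91, adjusted p = 0.175) and without goat 6 (adjusted p = 0.155). KRT20 was read in liver of goat 64 and in lung of goat 73 alone, and without either goat its difference could not be fitted, since a tissue was then at 0 throughout. The same held for KRT7 without goat 3 or 73 and in dry goats alone. KRT84, at 0 in every esophagus library, could not be fitted with all libraries either. KRT19 was the single lower gene that passed the filter on both sides. Genes at 0 in some of the tissues enter this comparison through a small prior count, on which the size of their difference depends. KRT38 was higher by 0.60 (SE 0.23, adjusted p = 0.0250), a call that ended without goat 54, 64 or 73, without lung, when libraries were scaled by features outside the lncRNA annotation (adjusted p = 0.0620) and when they were scaled by their totals alone (0.39, adjusted p = 0.172). Pooled KRT38 was also high in neck skin alone, at 50.4 CPM. It was 2.22 CPM in esophagus and 1.86 CPM in the forestomachs, below the 2.99 CPM of the simple epithelia. The other 17 calls held in every alternative tried.

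The mammary gland combined simple and basal keratins. KRT19 had 145, 69.2 and 41.1 CPM in lactating and 9.21, 41.0 and 38.2 CPM in dry glands, KRT8 had 30.3, 28.9 and 28.8 CPM and 4.91, 29.1 and 36.2 CPM in the same order, and KRT7, a type II keratin of ducts and glands, 38.8, 15.5 and 9.54 CPM and 2.87, 17.2 and 10.6 CPM. KRT5 had 11.2, 15.2 and 11.8 CPM in lactating and 4.71, 13.7 and 29.2 CPM in dry glands, and KRT14 ran from 0.205 to 7.92 CPM. Goat 54 had the lowest value of all 5 genes, and the 8 simple epithelium genes outside the keratins summed to 19.0 CPM in its gland, against 75.9 to 87.8 CPM in the others. The states overlapped for KRT8, KRT7, KRT5 and KRT14, and for KRT19 they met, with the lowest lactating gland at 41.1 CPM and the highest dry gland at 41.0 CPM.

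Against the 7 simple epithelia, 3 of 12 keratins tested were higher in the mammary gland and 2 lower, where 12.5% of features were called (7.46% higher and 5.02% lower). KRT7 was higher by 3.82 (SE 0.45, adjusted p = 6.91e-09), and KRT5 had 392 counts in the mammary gland and 24 in the simple epithelia, both called in every alternative tried. KRT5 passed the filter only through the mammary gland, and both lower genes only through the simple epithelia, so that these 3 calls are a description. KRT19 was higher by 1.87 (SE 0.38, adjusted p = 0.000322), and by 0.97 (adjusted p = 0.156) in dry goats alone. KRT23 had 7 counts in the mammary gland and 1076 in the simple epithelia, and its lower call was lost without goat 73 (adjusted p = 0.0829) and could not be fitted in dry goats alone. KRT20 was at 0 in all 6 mammary libraries and at a pooled 24.9 CPM in the simple epithelia, and its lower call could not be fitted without goat 64 or 73.

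Lactation state was compared within each of the 33 tissues, 3 goats against 3, and it cannot be told apart from other differences between these goats. Over 207 tests of keratins, 3 were called, where 1.9% of 578253 tests were called, and 30 had an unadjusted p under 0.05. DESeq2 called 11, and 3.65% of all tests.

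In kidney medulla KRT8 had 35.7, 25.6 and 35.3 CPM in lactating goats, against 7.61, 6.002 and 5.53 CPM in dry goats. The states did not overlap, and KRT8 was higher in lactation by 1.97 (SE 0.27, adjusted p = 0.000431), called in every alternative tried, where 15.1% of features tested in kidney medulla were called (6.02% higher). KRT19 (2.52, SE 0.80, adjusted p = 0.0542) and KRT18 (2.38, SE 0.78, adjusted p = 0.0617) did not pass. Both were called higher under DESeq2, library totals alone and no filter, KRT19 also with scaling outside the lncRNA annotation and without goat 3 or 73, and KRT18 also without goat 64. Over the alternatives adjusted p ran from 0.000844 to 0.257 for KRT19 and from 0.0239 to 0.240 for KRT18. The 8 simple epithelium genes outside the keratins summed to 94.9, 72.5 and 90.4 CPM in lactating and 29.6, 39.2 and 32.9 CPM in dry kidneys. Their part in the KRT8 difference was not tested.

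In ovary the keratins of simple epithelia were low in lactating goats. KRT8 had 0, 0.477 and 0.437 CPM in lactating goats, against 48.2, 54.8 and 5.004 CPM in dry goats. KRT19 had 0 in all 3 lactating goats, against 26.3, 23.2 and 3.13 CPM in dry goats, and was at least 71.9-fold lower in lactation against 3 counts over the group. Both were called lower in lactation (KRT8 −7.04, SE 1.07, adjusted p = 0.00633, and KRT19 adjusted p = 0.0118), where 11.7% of features tested in ovary were called (5.97% lower). Both genes passed the filter on low counts only through the dry goats, in which they are high, so that these calls are a description. Both calls were lost without any of goats 2, 3 or 6, with adjusted p from 0.0509 to 0.0611. The states did not overlap for either gene, and the same held for KRT18, at 0 in lactating and 7.92, 8.82 and 1.88 CPM in dry goats. The simple epithelium genes outside the keratins summed to 11.4, 10.3 and 11.9 CPM in lactating and 115, 101 and 50.2 CPM in dry ovaries, and 4 mesothelial genes to 10.9, 21.0 and 11.8 CPM in lactating and 48.9, 39.1 and 1.67 CPM in dry ovaries. Their part in the keratin difference was not tested.

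In neck skin and esophagus the low libraries all belong to lactating goats, so that the state and these libraries cannot be told apart there. With all libraries 0 keratins were called by edgeR in either tissue, where it called 0.0% of features in neck skin and 0.717% in esophagus. DESeq2 called 0 keratins in neck skin and 1 in esophagus, and its share of all features is not given here. At an unadjusted p under 0.05 there were 2 in neck skin and 3 in esophagus. Without goat 2 the fit called 21 keratins lower in lactation in neck skin (4.31% of features called lower), where the low libraries of goats 3 and 6 are then the lactating group. Without goat 6 it called KRT14, KRT3, KRT4 and KRT5 lower and KRT39 higher in the esophagus of lactating goats, where 16.0% of features were called (3.13% higher and 12.9% lower). The values of KRT4 were then 1912 and 653 CPM in goats 2 and 3, against 4602, 6956 and 6409 CPM in dry goats. Goat 2 is also the esophagus library in which skeletal muscle genes summed to 1344 CPM. Whether the effect of state differed between neck skin and esophagus was tested with an interaction term, which called 0 of 27 keratins (0.0% of features called), with 1 at an unadjusted p under 0.05 and 0 called by DESeq2. Among the 27, KRT1, KRT25, KRT27, KRT32, KRT74, KRT77 and KRT84 were at 0 in every esophagus library. Their interaction could not be fitted, so that the test could not have called them.

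Other genes of stratified epithelium were followed by lists. Through which tissue a listed gene passed the filter on low counts was not checked. Calls and differences of the cornified envelope, regulator and desmosome lists are therefore a description. Of 34 genes of the cornified envelope, the protein shell of dead surface cells, 24 were in the table. In neck skin against esophagus 11 were tested and 3 called, all lower in neck skin, where 2.5% of all features were called, the calcium-binding S100A9 (−8.59), S100A8 (−8.15) and the mucosal CRNN (−7.88). Without the low libraries 18 were tested, where 7.98% of all features were called, with 8 higher, among them the hair follicle protein TCHH (9.64) and the protease CASP14 (8.64), and 7 lower, S100A9 (−8.29) and CRNN (−7.59) included. Against the forestomachs, where 22.5% of all features were called, 5 of 17 were higher in neck skin, led by DSC1 (6.15) and SBSN (5.25), and 5 lower, among them S100A9 (−6.75) and TGM3 (−4.62). In esophagus against the forestomachs, where 10.2% of all features were called, 3 of 16 were higher, LOR (7.62), CRNN (7.37) and SBSN (4.94), and 4 lower, TGM3 (−7.62), TCHH (−6.60), RPTN (−4.21) and TGM5 (−2.73).

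Among 25 regulators of stratified epithelium, 0 of 15 tested were called by edgeR between neck skin and esophagus with all libraries, where 2.5% of all features were called, with 2 at an unadjusted p under 0.05. Without the low libraries 7.98% of all features were called. HOXC13, a factor that drives hair keratin genes, was then higher in neck skin (6.95), as was TFAP2A (2.20). PAX9 (−7.86), SOX2 (−6.02) and ELF3 (−5.09) were lower. Whether these genes passed the filter in both tissues was not checked. Neck skin against the forestomachs had 4 of 21 higher and 5 lower, where 10.6% of all features were called higher and 11.9% lower, with SOX2 (−6.72) and PAX9 (−6.53) the lowest. In esophagus against the forestomachs TFAP2C (2.22) was the single call of 20 tested, where 10.2% of all features were called. The desmosome list, the junctions on which keratin filaments are anchored, had 1 of 18 called between neck skin and esophagus (2.5% of all features), PPL at −3.17, and 3 higher and 2 lower of 22 in esophagus against the forestomachs (10.2% of all features called), with PPL at 3.44 and DSG4 at −2.72.

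In the RefSeq annotation 16 of the keratins lie in a type II cluster, which also holds KRT18, and 18 in a type I cluster, with further coding genes without a gene symbol between them. In the type II cluster 16 such genes were in the table and 10 reached a mean of 10 CPM in a stratified tissue, 8 with their highest mean in neck skin. In the type I cluster 43 were in the table and 7 reached 10 CPM, 6 with their highest mean in neck skin. LOC102179515, between KRT36 and KRT19, had 4401, 2085 and 0.479 CPM in esophagus of lactating goats and 16115, 18181 and 16863 CPM in that of dry goats. Its mean was 595 CPM in omasum, 503 CPM in reticulum, 289 CPM in rumen and 29.3 CPM in neck skin. The esophagus of goat 6, low in KRT4, was low in this gene as well.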

How the data were processed

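Total RNA was extracted with the RiboPure kit and made into strand-specific libraries with a VAHTS Universal kit, per the labels' protocols. STAR, StringTie and edgeR appear in the submitters' processing notes without versions or roles, and no genome build or use of strand in the counting is given in the sources used here, so counts of overlapping genes, antisense partners and near-identical copies are uncertain. The authors deposited expected counts per feature and library. Among values above 0, 37.0% had a fractional part (16.8% for keratins), and counts were rounded for the fits. On average 85.0% of counts fell in features of the deposited lncRNA annotation. The authors also deposited natural log offsets, built from library size together with gene length, used here only as an alternative scaling, and tau, a fraction from 0 to 1 given without a formula. The deposited table named for CPM was held in part and not used, and no 2 libraries held identical values. RefSeq (assembly ARS1.2) served only for names and neighbours, and 34 of 34 keratins matched.

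CPM was computed here over the library total, which ran from 1.31 to 8.97 M over all libraries. Floors of 3 counts and counting intervals cover counting error only. Tests used edgeR 4.0.16 in R 4.3.3: filterByExpr with a minimum count of 10, TMM scaling, and the two-sided quasi-likelihood test over all features with Benjamini-Hochberg adjustment at 0.05. A standard error is the log2 difference divided by the square root of F. Each fit held the tissues it compares. Fits between tissues, those with simple epithelia included, treat libraries of 1 goat as independent when no block is used. Goat numbers mark the same animals, so they pair the tissues. Deviations of the same goat correlated at a mean r of 0.0311 to 0.247 over 10 tissue pairs, and the own goat was the best match for 1 to 6 of 6 goats. The fits were made without a block, and the block was an alternative. The tissues compared are separate samples of 6 goats. Without the block, p-values of tissue comparisons measure the spread between libraries within tissues, both states together. DESeq2 1.42.0, RLE scaling, library totals alone, scaling from features outside the lncRNA annotation, the deposited offsets, no filter, dry goats alone, fits without lung or without abomasum and duodenum of goat 2, and leaving out each goat were the other alternatives.

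Ratios were taken where the 2 genes together had at least 20 counts, with 0.5 CPM added, and compared by exact permutation tests on log2 ratios over 16 comparisons. The limit of 100 CPM for keratinocyte genes, the fits without the low libraries and the ratio tests, within goats or not, were chosen after the data were seen. All keratins may be named. The keratinocyte sum includes 1 gene that is not reported here. Library values are given for the 3 keratins with the highest mean in each epithelial tissue and for the called keratins with the largest differences, and up to 4 called genes per direction are named from other lists. The members and the lists were chosen with earlier results of these data known. The scripts were tested on simulated data.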

Additional observations from a re-analysis of the deposited data

Results flagged for a closer look

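In 39 sets of 6 libraries of 1 keratin and tissue, 4 held a library far from the other 5. The sets share goats and libraries, and how many chance alone would give in these data was not tested. KRT14 stood at 18.3 CPM in the rumen of goat 54, against at least 311 CPM in the other rumen libraries, and this is the rumen library low in keratinocyte genes. Goat 3 held the high values of KRT14 in reticulum, at 510 CPM with the next goat at 234 CPM, and in omasum, at 696 CPM with the next goat at 270 CPM. KRT8 stood at 4.91 CPM in the mammary gland of goat 54, against at least 28.8 CPM in the other glands, in the library with the lowest sum of simple epithelium genes.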

How the results depend on the processing

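Of 47 called keratin results, 32 were called in every alternative tried, 1 (KRT40 in neck skin minus forestomachs) was not tested without goat 54 and was called in the others, and 1 turned its direction. KRT3 in esophagus minus forestomachs stood at −0.069 without goat 73 and at 3.24 without goat 2, the lowest and highest with 1 goat left out. The number of keratins called between neck skin and esophagus was 2 with all libraries, where 2.5% of features were called. It was 16 without the low libraries, where 7.98% of features were called. It became 13 without a filter on low counts, 17 in dry goats alone and 0 to 4 with 1 goat left out. Neck skin against forestomachs gave 9 with all libraries (22.5% of features called) and 20 without the low libraries (19.6%). That number was 23 without a filter, 21 in dry goats alone and 7 to 10 with 1 goat left out. With goats as a block, the number was 1 for neck skin against esophagus, rumen against omasum and reticulum against omasum (2, 0 and 0 without it), and the block ended the calls of KRT10 in neck skin minus esophagus, KRT35 in neck skin minus forestomachs and KRT3 in esophagus minus forestomachs, and no other. Rumen against omasum had 2 with DESeq2, 1 without a filter and 0 to 1 with 1 goat left out. Reticulum against omasum stayed at 0 and rumen against reticulum at 1 with any 1 goat left out, and the second was 0 in dry goats alone. With 1 goat left out esophagus against forestomachs had 5 to 7 (7 with all), stratified against simple tissues 17 to 20 (20 with all), mammary gland against simple epithelia 3 to 6 (5 with all, 9 without a filter), and the interaction 0 to 1 (0 with all). Lactation against dry, summed over tissues, gave 3 of 207 keratin tests (1.9% of all tests called) and 11 under DESeq2 (3.65%). Library totals gave 6 of 207, where 10547 of 578253 tests were called higher and 5375 lower. Scaling outside lncRNAs gave 6 of 213, where 5224 of 580029 tests were called higher and 5598 lower. Without a filter there were 22 of 761, where 12585 of 1078561 tests were called higher and 13160 lower. With 1 goat left out the number was 2 to 24. Stratified tissues held the highest mean of 25 to 27 keratins with 1 goat left out, against 27 with all. Scaling by library totals alone moved the median of all genes by 0.50 in neck skin minus esophagus, 0.35 in neck skin minus forestomachs, −0.17 in esophagus minus forestomachs and −0.21 in stratified minus simple tissues, and differences under that scaling include these shifts. Numbers of called keratins without a share of all features beside them describe the fits and are not a result about keratins. The causes of these changes were not tested. Depth limits keratins near the 3-count floor, such as KRT9, KRT24 and KRT26.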

Other observations

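Outside the 13 epithelial tissues the 34 keratins summed to between 6.56 and 160 CPM per library, with a median of 31.2 CPM. In 9 brain tissues KRT10, the epidermal type I keratin, had means of 7.13 to 16.8 CPM, KRT38 of 6.31 to 11.2 CPM and KRT39 of 5.28 to 8.80 CPM, and the type II partner of KRT10, KRT1, at most 0.408 CPM. KRT20 had means of 1.37 to 4.78 CPM in the same tissues. KRT7 reached 4.38 CPM in the cerebellar hemisphere, with 2.71 to 5.75 CPM over its 6 goats. KRT222, a keratin-like gene, had its highest mean in frontal neocortex (3.37 CPM).

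The neurohypophysis of goat 73 held 19.4 CPM of KRT6A, 7.78 CPM of KRT36, 4.35 CPM of KRT3 and 3.20 CPM of KRT5, keratins that are highest in stratified epithelia. The ovaries of goats 54 and 64 held 37.0 and 32.0 CPM of KRT6A, which was at 0 in the other 4 ovaries.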
